A study of Bos taurus with 8 samples.

Results

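Transcripts of pre-mRNA splicing factors were examined in whole blood of cows incubated with or without a phenolic extract of cowpea leaf (CPE). The genes were taken by name, as all whose symbol on the array begins with SRSF, SFRS, HNRNP, HNRP, SNRP, SF3A, SF3B, PRPF or U2AF, which gave 67 of 17035 named genes and 204 of 43653 probes. No measured value entered this naming rule, although it was chosen with earlier results of these data known. Of the 67 genes, 40 could be tested, at 63 probes, among 4854 genes tested in all.

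The series consists of 8 single-colour arrays. In the CPE group (4 arrays) fresh blood of female Holstein Friesian cows received 10 µg/ml of the leaf extract for 30 min at 37 °C in humid air with 5% CO2, and in the CONTROL group (4 arrays) the blood was incubated likewise without extract. Both groups came from cows (n = 5) that had received a probiotic for 60 days, and RNA integrity numbers were above 7. The comparison asks which blood transcripts differ after a short contact with the extract. RNA was pooled per group before hybridisation. The 4 arrays per group may therefore be repeat measurements of 1 pool, and an SE or p then covers the variation of arrays, with none from animal to animal. Each group also lay on a slide of its own, scanned at another date and read with another version of the spot grid, so slide and treatment cannot be told apart in any value below. In blood, fewer cells of a type and less RNA per cell cannot be told apart either.

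Introns are removed from nuclear transcripts by the spliceosome, which is built from small nuclear ribonucleoprotein particles (snRNPs) and many further proteins. SR proteins, which carry a domain rich in serine and arginine, bind exons and help to recruit this machinery, whereas hnRNP proteins coat nascent transcripts and often act against inclusion of an exon. Splicing in leukocytes changes with activation, as in the alternative exons of the receptor phosphatase gene PTPRC.

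Large areas of each array were dim, so results rest on spots in bright surroundings on all 8 arrays (13080 spots, 29.9%) whose probe the scanner software called well above background on all 8. This criterion left 27 splicing factor genes untested. For 25 of them no probe lay in the bright area of all arrays, and for SNRPD3 and U2AF2 such a probe was not well above background throughout. The untested genes include most SNRP genes (SNRPA, SNRPB, SNRPB2, SNRPC, SNRPD1, SNRPD3, SNRPE, SNRPF and SNRPN). They also include all U2AF genes (U2AF1, U2AF1L4 and U2AF2), and SRSF1 and SRSF9. The others include HNRNPA2B1, HNRNPA3, HNRNPK, HNRNPL, HNRNPLL, PRPF31, PRPF38B, PRPF40B, PRPF4B, PRPF6, SF3A1 and SF3B6. A tested gene passed because its probe was bright in both groups, so the tested genes are not a random sample of the 67.

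The array reads each transcript with probes of 60 bases, and several genes gave different answers at different probes. The following probe sequences, from the deposited table and written 5′ to 3′, are those behind the main contrasts. They begin with a pair of probes of SRSF6 that fell together and the SRSF11 probe with a positive but uncalled difference. A probe of PNISR, the opposed pair of HNRNPF, and probes of SF3B2 and SF3B4 from the same complex follow. Capitals mark TCTCG, letters that in frame spell a serine codon followed by the start of an arginine codon.
SRSF6 A_73_P275511: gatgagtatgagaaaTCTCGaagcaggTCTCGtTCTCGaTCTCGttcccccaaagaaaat
SRSF6 A_73_P253421: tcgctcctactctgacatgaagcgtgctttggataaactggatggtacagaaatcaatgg
SRSF11 A_73_P386286: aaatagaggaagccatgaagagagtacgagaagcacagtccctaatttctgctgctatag
PNISR A_73_P192152: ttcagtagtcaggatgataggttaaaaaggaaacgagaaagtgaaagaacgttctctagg
HNRNPF A_73_P278226: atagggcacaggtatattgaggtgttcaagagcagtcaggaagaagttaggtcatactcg
HNRNPF A_73_P278266: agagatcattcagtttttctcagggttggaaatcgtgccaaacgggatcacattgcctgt
SF3B2 A_73_P253646: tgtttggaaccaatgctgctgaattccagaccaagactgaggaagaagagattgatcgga
SF3B4 A_73_P091016: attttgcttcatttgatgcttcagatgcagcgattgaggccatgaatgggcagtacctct
The first SRSF6 probe holds 4 copies of TCTCG, none overlapping. The others hold 0 in the strand printed, and the probes of SRSF11 and PNISR each hold 1 copy of its reverse complement CGAGA. On either strand, 4.43% of all probes of 60 bases hold it.

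Spots well above background made up 37.8% to 49.9% of CPE arrays and 26.4% to 37.1% of CONTROL arrays, and the 75th percentile of processed signal was 134 to 280 intensity units in CPE and 53.1 to 149 in CONTROL. CPE array 3 and CONTROL array 4 stood apart from the rest of their groups. Across bright probes, r between arrays of a group was 0.970 to 0.998 in CPE and 0.984 to 0.997 in CONTROL, against 0.921 to 0.972 between groups. Without these 2 arrays the ranges were 0.992 to 0.998, 0.996 to 0.997 and 0.966 to 0.972. Results are therefore given with all arrays and, where it matters, without both.

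Splicing factor transcripts moved in both directions by less than 2-fold. PNISR, SRSF2, SRSF4, HNRNPF, SF3A2, SF3A3, PRPF3 and PRPF39 were lower in CPE, and HNRNPAB, HNRNPH2, SNRPG, SF3B2, SF3B4, SF3B5 and PRPF18 were higher. That makes 7 higher, 8 lower and 25 neither of the 40 genes tested (limma, Benjamini-Hochberg adjusted p under 0.05 over all 4854 genes). Among all genes, 1154 (23.8%) were higher and 1135 (23.4%) lower, and the shares among the splicing factors were 17.5% and 20.0%. The median log2 difference, CPE minus CONTROL, was 0.0058 over the 40 genes and 0.020 over all genes. The groups did not overlap in 18 of the 40 genes, against 49.4% of all genes. None of the 40 was called with a difference over 2-fold, compared with 173 rises and 191 falls among all genes. These counts describe the genes as a group, and a difference from the other genes was not tested.

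**Figure D1:**
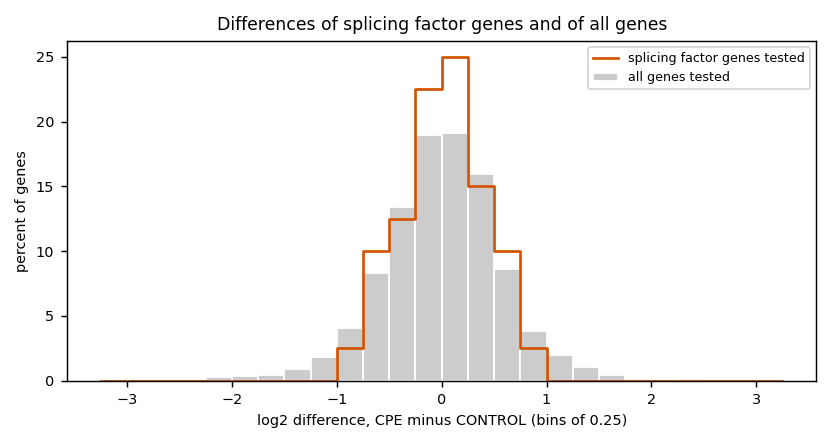
Share of genes (percent, vertical axis) by log2 difference, CPE minus CONTROL (horizontal axis, bins of 0.25), for the 40 splicing factor genes tested (line) and all 4854 genes tested (grey bars). The splicing factors lie between −0.97 and 0.78, around the same centre as all genes, which reach from −3.06 to 2.62.

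The sign of a rise depends on the scaling. Levels here are log2 signals minus the 75th percentile of bright probes on each array. In the authors' deposited table, which holds log2 values scaled over whole arrays, the median difference over all probes is −1.05, that over the 40 splicing factor genes is −1.11, and all 40 are negative, the 7 that rose here included. Rises and falls below are thus relative to the other bright genes. When the dim areas were also used and the scanner signal was scaled over whole arrays, 0 of 47 splicing factor genes tested were higher and 18 lower. That setting, called whole-array scaling below, thus changes the spots and genes used as well as the scaling. Of all 6102 genes tested in it, 123 were higher and 2248 lower. With quantile normalisation of the bright probes the counts were 5 and 9, and without scaling they were 0 and 1. The counts over all 4854 genes were 1080 and 1136 with quantile normalisation, and 190 and 528 without scaling. Without CPE array 3 and CONTROL array 4, a choice made after seeing the data, 12 genes were higher and 11 lower, while the shares of all genes were 32.2% and 29.9%. Without CONTROL array 1 or CONTROL array 2 alone, 4 splicing factor genes were higher and 7 lower.

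**Figure D2:**
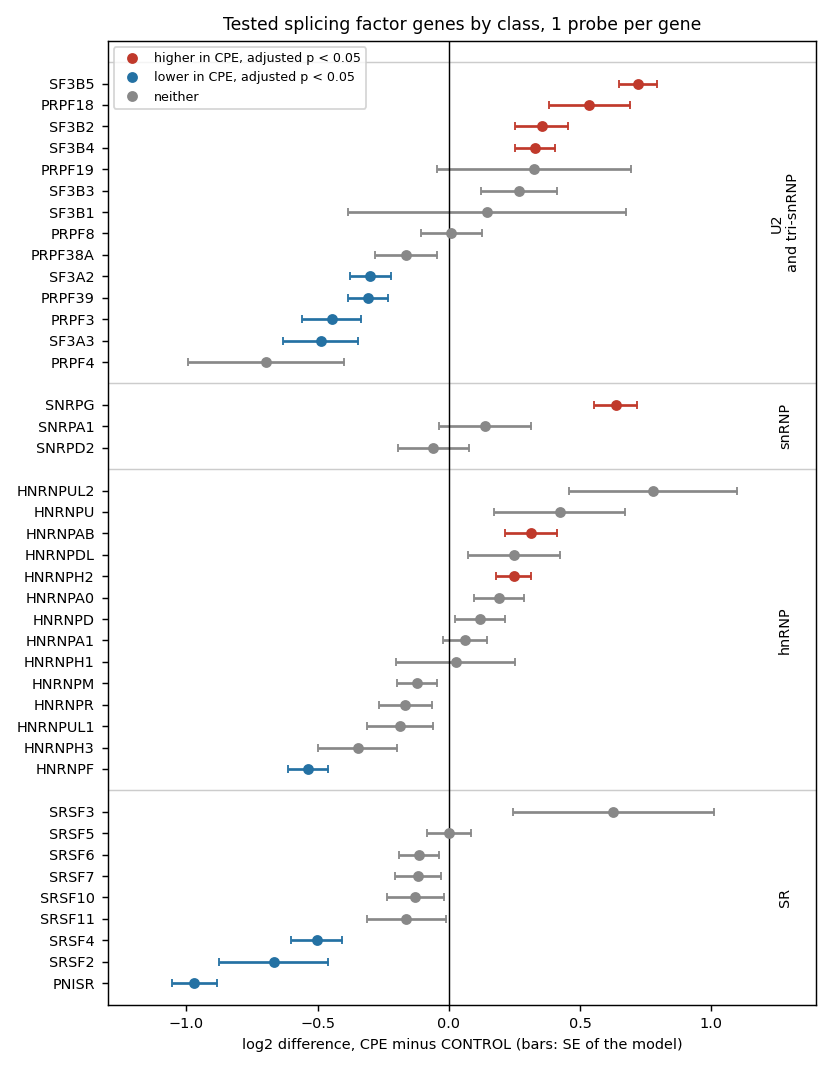
Log2 difference, CPE minus CONTROL, with the standard error of the model (bars), of the 40 splicing factor genes tested, each at the probe of highest mean signal, by class. Red and blue mark an adjusted p under 0.05; the SR class has 3 blue and 0 red genes, and both SF3A genes are blue while 3 of 5 SF3B genes are red.

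Among the SR proteins, every call was toward lower levels in CPE. Of 9 genes tested (11 on the array), 3 fell, 0 rose and 6 passed neither way, with a median log2 difference of −0.13, where 23.4% of all genes fell and 23.8% rose. The count of rises stayed at 0 under every scaling tried, and the falls numbered 3 with quantile normalisation, 1 without scaling and 7 of 10 with whole-array scaling. Among all genes, 1136 of 4854 fell with quantile normalisation, and 528 fell and 190 rose without scaling. Whole-array scaling lowered most genes, with 2248 of all 6102 falling, 123 rising and a median of −1.03. All 3 genes that fell had groups that did not overlap. Overlap was read from the same values that gave the calls, so it is no further support for them. The 49.4% of all genes without overlap includes genes that were not called. With the mean over a gene's probes in place of the brightest probe, 6 of the 9 SR genes fell and 0 rose. In that setting 1156 of all 4854 genes fell and 1210 rose.

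PNISR (NM_001078097, SFRS18 in the files), a nuclear SR-related protein that binds pinin, gave the largest fall among the 40 genes tested. Its log2 levels were 0.80, 0.59, 0.79 and 0.73 on the CPE arrays and 1.65, 1.67, 1.64 and 1.84 on the CONTROL arrays. The lowest CONTROL array lay well above the highest CPE array, and CONTROL array 4 stood above the other CONTROL arrays. The difference was −0.97 (SE 0.08, 1.96-fold lower, limma adjusted p = 5.50e-05). It was −0.94 without the 2 arrays that stand apart. PNISR kept its call in each of the 24 alternative settings run for it.

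SRSF4 (NM_001101231), one of the larger SR proteins, fell by 0.50 on the log2 scale. Its levels were 1.44, 1.23, 1.5 and 1.45 in CPE and 1.83, 1.84, 1.85 and 2.12 in CONTROL. CPE array 2 was the lowest and CONTROL array 4 the highest, and the groups did not overlap (SE 0.10, limma adjusted p = 0.0033). SRSF2 (NM_001034318), a component of nuclear speckles, read 1.66, 1.69, 0.71 and 1.65 in CPE and 2.10, 2.07, 2.14 and 2.06 in CONTROL. Most of the spread of SRSF2 came from CPE array 3, although the other CPE arrays too lay below all CONTROL arrays. Its difference was −0.67 (SE 0.21, limma adjusted p = 0.027), and −0.43 without CPE array 3. Leaving out any 1 CONTROL array ended the call of SRSF2, at differences of −0.65 to −0.68, and leaving out CPE array 3 did not.

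The 6 other SR genes passed neither way at the probe that represents them. SRSF11 differed by −0.16 (SE 0.15), SRSF10 by −0.13 (SE 0.11), SRSF7 by −0.12 (SE 0.09), SRSF6 by −0.11 (SE 0.08) and SRSF5 by 0.0024 (SE 0.08). SRSF3, a small SR protein that also takes part in RNA export, had the only positive difference of size at 0.63 (SE 0.38). Its CPE levels were 1.92, 1.48, 3.24 and 1.82, with array 3 far above the rest, and 3 CONTROL arrays read 1.63, 1.59 and 1.26, the spot on CONTROL array 2 having been marked as an outlier and left out. Without CPE array 3 and CONTROL array 4 it was 0.13.

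Read probe by probe, the SR class held further falls. Of 17 SR probes tested, 10 fell and 0 rose, with a median of −0.50, while 24.2% of all 6034 probes were higher, 23.5% lower, and their median was 0.025. Probes of a gene share a transcript and are not replicates, so these are counts of readings. In 6 of the 9 genes at least 1 probe fell. A gene with more probes has more chances of such a call, and the matching share of all genes was not computed. Without the 2 arrays that stand apart, 11 of 17 probes fell and 0 rose, with 32.9% of all probes higher and 30.0% lower.

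SRSF11, an SR-related protein known to interact with U2AF, had 4 tested probes. One read 1.17, 1.13, 1.11 and 1.27 in CPE and 2.12, 2.05, 2.12 and 2.28 in CONTROL, a difference of −0.97 (SE 0.08, limma adjusted p = 4.41e-05). A second differed by −0.78 (SE 0.08, limma adjusted p = 0.00016) and the brightest by −0.16. The remaining probe, whose sequence is printed above, read 1.91, 2.00, 1.70 and 1.63 in CPE and 1.62, 1.64, 1.64 and 1.72 in CONTROL. There the groups overlapped, and the difference was 0.15 (SE 0.10). Without the 2 arrays the 4 probes read −0.91, −0.77, −0.35 and 0.21, the first 3 of them called.

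SRSF6, another regulator of alternative exons, had 3 tested probes. That with the 4 TCTCG copies read 2.11, 1.87, 2.10 and 2.04 in CPE and 2.72, 2.74, 2.73 and 2.88 in CONTROL, so that every CPE array lay below every CONTROL array. The difference was −0.74 (SE 0.08, limma adjusted p = 0.00023), and −0.73 without the 2 arrays. The second printed probe differed by −0.46 (SE 0.13) and the brightest, which represents the gene, by −0.11. SRSF10, a splicing repressor after heat shock, read −0.60 (SE 0.10) at one probe and −0.13 at the brighter one. The further probes of PNISR fell too, by 0.55 (SE 0.09) at the printed probe. The fall was 0.71 (SE 0.25) at a probe that kept the name SFRS18 when probes were named. On that last probe CPE array 3 read −3.02 against −1.92 to −1.83 on the other CPE arrays, and the difference without the 2 arrays was −0.46.

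**Figure D3:**
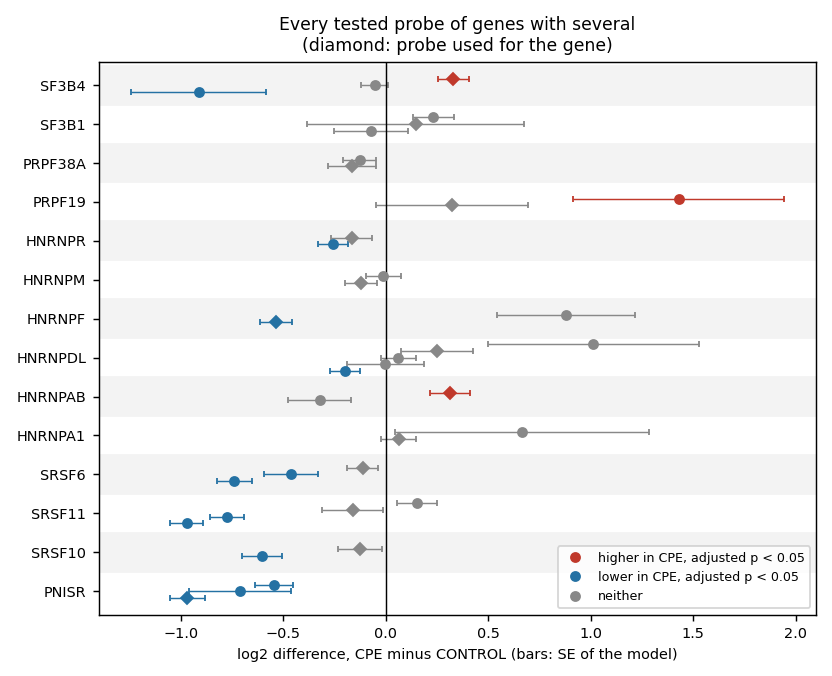
Log2 difference, CPE minus CONTROL, with the standard error of the model (bars), at every tested probe of the 14 splicing factor genes with several; a diamond marks the probe that represents the gene. The probes of SRSF11 run from −0.97 to 0.15, and SF3B4 is the gene with both a red and a blue probe.

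Most hnRNP genes were not called. Of 14 genes tested (19 on the array), HNRNPAB and HNRNPH2 rose, HNRNPF fell and 11 passed neither way, with a median of 0.09. The shares were 14.3% higher and 7.1% lower, against 23.8% and 23.4% of all genes, a difference that was not tested. With quantile normalisation 1 rose and 2 fell, without scaling none was called, and with whole-array scaling 0 of 16 rose and 5 fell. Over all genes, 1080 rose and 1136 fell of 4854 with quantile normalisation. Without scaling 190 rose and 528 fell, and with whole-array scaling 123 rose and 2248 fell of 6102.

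HNRNPF (NM_001014860), which binds runs of guanines near splice sites, had levels of −0.48, −0.43, −0.63 and −0.57 in CPE and −0.01, 0.06, −0.04 and 0.04 in CONTROL. The groups lay clearly apart, with a difference of −0.54 (SE 0.08, limma adjusted p = 0.00066). The second printed probe of HNRNPF went the other way, at −0.25, 0.26, 0.27 and −0.22 in CPE and −0.43, −0.55, −0.49 and −1.98 in CONTROL. CONTROL array 4 was far below the others there, and the difference of 0.88 (SE 0.34) was not called (limma adjusted p = 0.058). Without the 2 arrays it was 0.42 and was called higher, so that the pair of probes then gave opposite calls for 1 gene. Averaged over both probes, the difference of HNRNPF was 0.17 and was not called.

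HNRNPH2 (NM_001076008), a close relative of HNRNPF, rose slightly. Its levels were 1.07, 0.97, 0.98 and 1.04 in CPE and 0.76, 0.75, 0.79 and 0.77 in CONTROL. The spread within each group was small and the groups did not overlap, with a difference of 0.25 (SE 0.07, limma adjusted p = 0.015). The call of HNRNPH2 ended without CONTROL array 2, at 0.24. HNRNPAB (NM_001040522), which binds RNA and also promoter DNA, read 3.95, 3.81, 4.24 and 3.90 in CPE and 3.63, 3.70, 3.65 and 3.67 in CONTROL. All CPE arrays were above all CONTROL arrays, CPE array 3 by most, and the difference was 0.31 (SE 0.10, limma adjusted p = 0.030). That call ended when CPE array 1 or any 1 CONTROL array was left out, and a second probe of HNRNPAB read −0.32 (SE 0.15), uncalled.

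The other hnRNP genes passed neither way, and 1 array decided several of them. HNRNPU, a scaffold protein of nuclear chromatin, read −2.54, −2.60, −3.73 and −2.61 in CPE and −3.34, −3.42, −3.26 and −3.15 in CONTROL. CPE array 3 alone lay below the CONTROL arrays, and the difference of 0.42 (SE 0.25) became 0.76 and was called without the 2 arrays. HNRNPDL, related to HNRNPD, differed by 0.25 (SE 0.17) with all arrays and by 0.50 without those 2, again a call. HNRNPH3 read −0.35 (SE 0.15) and −0.54, HNRNPA0 0.19 (SE 0.10) and 0.30, and HNRNPD 0.12 (SE 0.09) and 0.21, all 3 called without them and uncalled with all arrays. In this reduced set 6 hnRNP genes were higher and 2 lower, with 32.2% of all genes higher and 29.9% lower.

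HNRNPA1, a well-studied repressor of exons, differed by 0.06 (SE 0.08) at its brighter probe. Its other probe read 2.07, 2.07, 0.81 and 2.01 in CPE and 1.75, 1.73, 1.76 and −0.95 in CONTROL. Apart from CPE array 3 and CONTROL array 4 the values of that probe were tight, and its difference went from 0.66 (SE 0.62) to 0.30, called, without them. HNRNPUL2, uncalled at 0.78 (SE 0.32), was 0.34 without the 2 arrays, and HNRNPH1 turned from 0.03 (SE 0.23) to −0.29, both uncalled there too. Of the rest, HNRNPM differed by −0.12 (SE 0.08), HNRNPR by −0.17 (SE 0.10) and HNRNPUL1 by −0.19 (SE 0.13). HNRNPUL1 had no value on CPE array 2, whose spot was marked as an outlier. HNRNPR had a second probe that fell by 0.26 (SE 0.07). The 5 probes of HNRNPDL ranged from −0.20, the one called lower, to 1.01 (SE 0.51), which was not called.

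Only 3 of 12 snRNP genes could be tested. SNRPG (NM_001040543), the G subunit of the Sm ring around spliceosomal RNAs, rose. It read 3.62, 3.41, 3.61 and 3.48 in CPE and 2.83, 2.89, 2.86 and 3.00 in CONTROL. The groups were far apart relative to their spread, and the difference was 0.64 (SE 0.08, 1.55-fold, limma adjusted p = 0.00040), or 0.65 without the 2 arrays. SNRPA1, a protein of the U2 snRNP, differed by 0.14 (SE 0.17), with 0.60 on CPE array 3 against −0.20 to −0.13 on the other CPE arrays. SNRPD2, of the Sm ring too, differed by −0.06 (SE 0.14). With whole-array scaling the value of SNRPG was −0.48 and was not called.

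**Figure D4:**
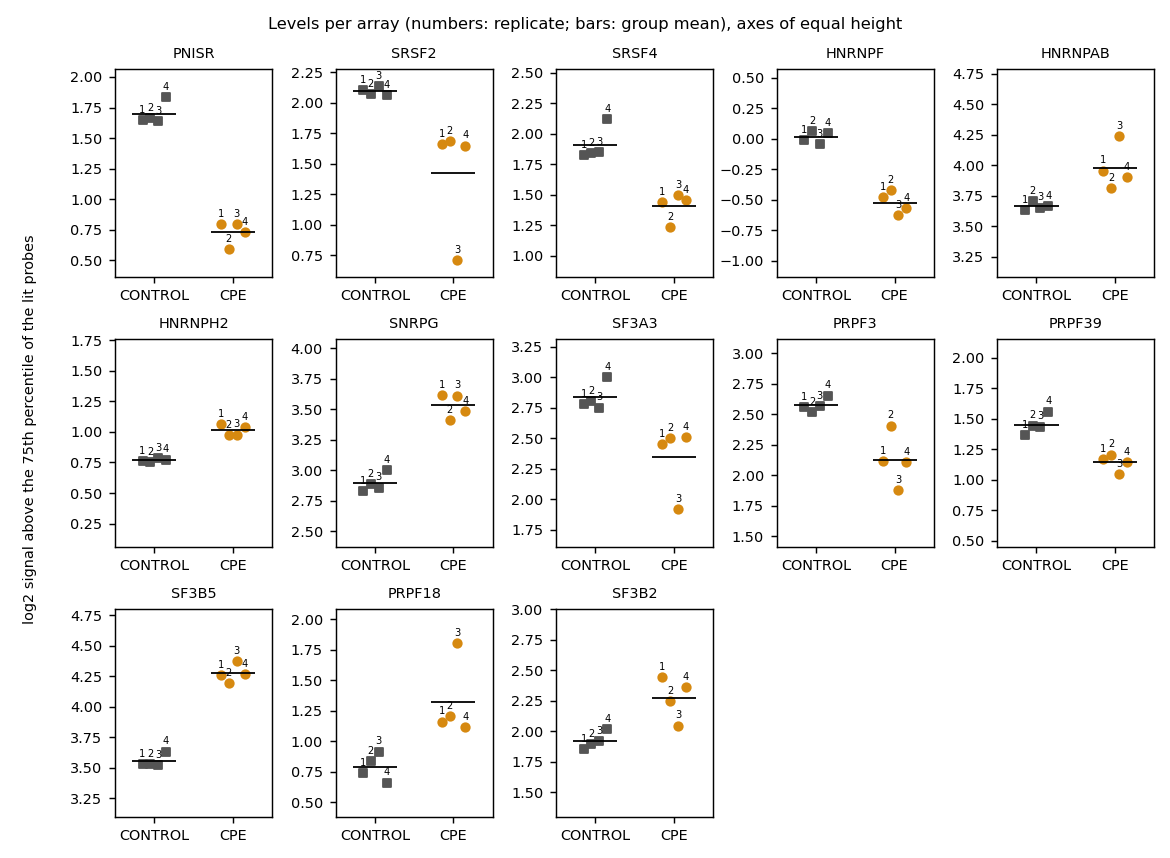
Level of 13 splicing factor genes on each array (vertical axis, log2 signal above the 75th percentile of bright probes) for CONTROL (squares) and CPE (circles); numbers give the replicate and bars the group mean, and all axes span the same height. The groups do not overlap in any of the 13, which were picked by their calls on these same values. CPE array 3 lies far from its group in SRSF2, SF3A3 and PRPF18.

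Proteins of the U2 snRNP and the tri-snRNP recognise the branch point and form the catalytic centre. The U2 and tri-snRNP class here was formed by symbol, from the SF3A, SF3B, PRPF and U2AF genes. It thus also holds factors of other kinds, such as PRPF18, PRPF19 and PRPF39, and lacks SNRPA1, counted above among the snRNP genes. Calls in this class went in both directions. Of 14 genes tested (25 on the array), 4 rose, 4 fell and 6 passed neither way, with a median of 0.08. That is 28.6% each way, near the 23.8% of all genes that rose and the 23.4% that fell. Both tested SF3A genes fell, and of 5 SF3B genes 3 rose and 0 fell. The difference between these complexes was not itself tested. Without the 2 arrays that stand apart the counts of SF3A and SF3B were the same, with 32.2% of all genes higher and 29.9% lower. With whole-array scaling both SF3A genes remained lower and 0 of 5 SF3B genes were called, at a median of −0.79. In that setting 2248 of all 6102 genes were lower and 123 higher, at a median of −1.03. Without scaling 0 genes of either complex were called, at medians of −0.57 for SF3A and 0.16 for SF3B. The median of all genes was then −0.15, with 190 higher and 528 lower. With normexp background correction 0 SF3A genes were called, at a median of −0.33, and 2 SF3B genes rose, against a main median of −0.39 for SF3A. Normexp left 666 of all 4854 genes higher and 596 lower.

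In SF3A, the trimer that helps the U2 snRNP to mature, SF3A3 (NM_001034548) read 2.45, 2.50, 1.92 and 2.51 in CPE and 2.78, 2.80, 2.75 and 3.00 in CONTROL. CPE array 3 was lowest and CONTROL array 4 highest, and the groups did not overlap. The difference was −0.49 (SE 0.14, limma adjusted p = 0.021), and −0.29, still called, without both arrays. Without CONTROL array 4 alone the call of SF3A3 ended at −0.43. SF3A2 (NM_001099211) fell by 0.30 (SE 0.08, limma adjusted p = 0.014), from CONTROL levels of 1.86 to 2.10 to CPE levels of 1.58 to 1.72.

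SF3B holds the branch point adenosine in place, and SF3B5 (NM_001025350), its small subunit, gave the largest called rise among the 40 genes. It read 4.26, 4.20, 4.37 and 4.27 in CPE and 3.53, 3.53, 3.52 and 3.63 in CONTROL. Both groups were tight and far apart, with a difference of 0.72 (SE 0.07, 1.65-fold, limma adjusted p = 0.00012). SF3B2 (NM_001103271), at the probe printed above, read 2.45, 2.25, 2.05 and 2.36 in CPE and 1.85, 1.90, 1.92 and 2.02 in CONTROL. CPE array 3 nearly met CONTROL array 4, and the difference was 0.35 (SE 0.10, limma adjusted p = 0.018), or 0.46 without them. The call of SF3B2 ended without array 1 or 4 of CPE, and without array 1 or 2 of CONTROL, at 0.30 to 0.35.

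SF3B4 (NM_001205584), an RNA-binding subunit, was the gene with opposite calls at different probes. It rose by 0.33 (SE 0.08, limma adjusted p = 0.0074) at its brightest probe, with 1.16, 1.00, 1.08 and 1.16 in CPE and 0.70, 0.79, 0.73 and 0.85 in CONTROL. At the printed probe it read −2.94, −3.03, −4.48 and −2.94 in CPE and −2.62, −2.38, −2.55 and −2.20 in CONTROL. That is a fall of 0.91 (SE 0.33, limma adjusted p = 0.047), which was −0.46 and still called without the 2 arrays, and the remaining probe read −0.05. The mean over the 3 probes of SF3B4 was −0.21 and was not called. SF3B3 differed by 0.27 (SE 0.14). SF3B1, the largest subunit and the target of splicing inhibitors such as pladienolide, had 3 probes at 0.14 (SE 0.53), 0.23 (SE 0.10) and −0.07 (SE 0.18), none called. At the first, CPE array 3 read 5.27 and the other CPE arrays 2.44 to 3.56, and the difference without the 2 arrays was −0.62, not called. The last of these SF3B1 probes read −0.31 without them and was called lower.

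Of the 7 PRPF genes tested, PRPF18 rose, PRPF3 and PRPF39 fell and 4 passed neither way, where 23.8% of all genes rose and 23.4% fell. PRPF3 (NM_001046051), of the U4/U6 part of the tri-snRNP, read 2.12, 2.40, 1.87 and 2.11 in CPE and 2.56, 2.52, 2.56 and 2.65 in CONTROL. The lowest CPE array was again array 3, and all CPE arrays lay below CONTROL, with a difference of −0.45 (SE 0.11, limma adjusted p = 0.011). PRPF39 (NM_001109789), related to a U1 snRNP protein of yeast, read 1.17, 1.20, 1.04 and 1.15 in CPE and 1.37, 1.44, 1.44 and 1.56 in CONTROL, without overlap. It fell by 0.31 (SE 0.08, limma adjusted p = 0.010).

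PRPF18 (NM_001075323), a factor of the second catalytic step, read 1.16, 1.21, 1.80 and 1.12 in CPE and 0.74, 0.84, 0.92 and 0.66 in CONTROL. CPE array 3 was far above the other CPE arrays, which still lay above all CONTROL arrays. The difference was 0.53 (SE 0.15, limma adjusted p = 0.020), and 0.33, called, without CPE array 3 and CONTROL array 4. Without CONTROL array 1 or CONTROL array 4 alone the call of PRPF18 ended, at 0.52 and 0.49.

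In PRPF4, a partner of PRPF3, 1 array decided the call. The gene read 2.50, 2.51, 1.13 and 2.49 in CPE and 2.75, 2.80, 2.81 and 3.06 in CONTROL. Every CPE array was below every CONTROL array, yet the difference of −0.70 (SE 0.30) was not called, and without CPE array 3 it was −0.35 and was. PRPF8, the scaffold of the catalytic core, differed by 0.0092 (SE 0.12) with all arrays and by 0.16, called higher, without the 2 that stand apart. PRPF38A differed by −0.16 (SE 0.12). PRPF19, a ubiquitin ligase of the spliceosome, differed by 0.32 (SE 0.37) at its brighter probe, which turned to −0.22, uncalled, without the 2 arrays, and by 1.43 (SE 0.51, limma adjusted p = 0.047) at another. At that second probe CONTROL array 4 read −3.42 against −1.51 to −1.35 on the other CONTROL arrays, and the difference was 0.58, called, without the 2 arrays. The 1.43 of PRPF19 is the one called difference over 2-fold among the 63 probes.

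**Figure D5:**
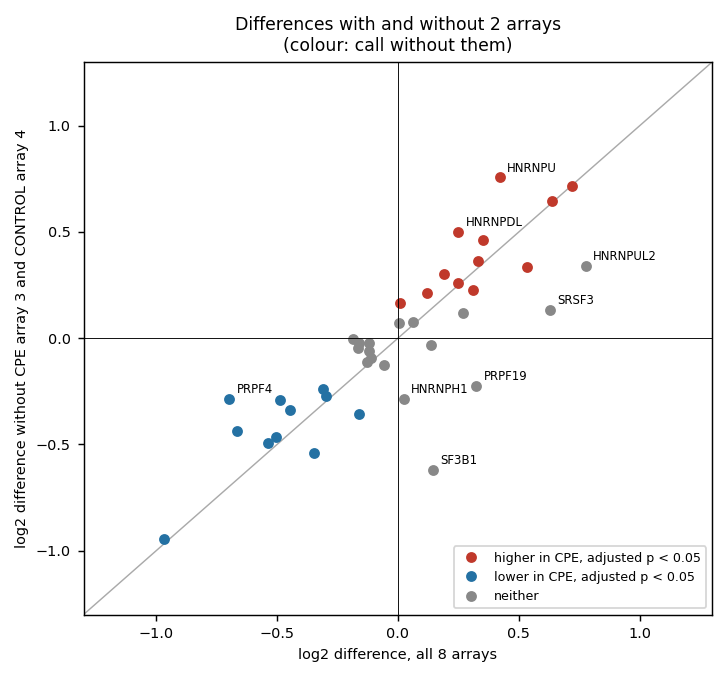
Log2 difference, CPE minus CONTROL, of the 40 splicing factor genes with all 8 arrays (horizontal axis) and without CPE array 3 and CONTROL array 4 (vertical axis); the diagonal marks equal values and colour the call without them. PNISR, SF3B5 and SNRPG lie close to the diagonal, while SF3B1 moves from 0.14 to −0.62 and HNRNPU from 0.42 to 0.76.

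Over the 14 genes with several tested probes there were 36 pairs of probes, of which 21 had the same sign and 15 opposite signs. No pair shared a run of more than 9 bases, so the probes read different stretches of each transcript, and GC content ran from 26.7% to 71.7%. The hexamer AATAAA, the common polyadenylation signal, was searched on the strand of the probe and found in 4 of the 63 probes, those representing SRSF4, SRSF6, HNRNPAB and HNRNPR, against 9.35% of all probes of 60 bases. In SRSF6, HNRNPAB and HNRNPR, the genes among these with further probes, the probe with the hexamer read −0.11, 0.31 and −0.17. The further probes read −0.46 and −0.74 for SRSF6, −0.32 for HNRNPAB and −0.26 for HNRNPR. This arrangement was chosen after the values were seen and was not tested.

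Other genes of the splicing pathway, from lists of general knowledge, also moved both ways. Of 73 tested, 21 rose (28.8%) and 16 fell (21.9%), near the 23.8% and 23.4% of all genes, with a median of 0.12. Among relatives of the SR proteins 3 of 9 rose and 1 fell, led by RNPS1, of the exon junction complex, at 1.08 (SE 0.13) and SON, a speckle protein, at −0.53 (SE 0.12). Kinases of SR proteins and snRNP assembly factors gave 3 rises and 1 fall of 7, and here the SR protein kinases SRPK1 at 1.02 (SE 0.09) and SRPK2 at −0.98 (SE 0.09) moved in opposite directions. Among splicing regulators outside the named families 3 of 21 rose and 8 fell, with YBX1, a cold shock domain protein, at 1.83 (SE 0.28) and MBNL1, a muscleblind protein, at −1.06 (SE 0.09).

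The helicase and GTPase list had 1 rise and 1 fall of 7, EFTUD2, the GTPase of the U5 snRNP, at 1.67 (SE 0.12) and DDX17 at −0.74 (SE 0.07). Further proteins of the U2 snRNP, tri-snRNP and catalytic steps gave 7 rises and 4 falls of 23, with CDC5L at 1.21 (SE 0.23) and CHERP at −1.38 (SE 0.21) at the ends. Of 4 exon junction and cap-binding genes 2 rose and 1 fell, with the export adaptor ALYREF at 0.45 (SE 0.08) and THOC1 at −0.41 (SE 0.14). The LSm proteins, which form a ring like that of the Sm proteins, had 2 tested genes, both higher, LSM8 at 0.33 (SE 0.10) and LSM10 at 0.28 (SE 0.09). Of 6 snRNP proteins whose symbols begin with SNRNP, which the naming rule does not take, 0 could be tested.

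Markers of blood cells were read beside these values, and 23 of 39 on the array had a probe well above background on all 8 arrays. Tests also needed that probe in the bright area, which left 21 markers, 8 (38.1%) higher and 5 (23.8%) lower in CPE. The shares of all genes were 23.8% higher and 23.4% lower. All 4 tested T cell markers were higher in CPE (median 1.01; CD3D, CD3E, CD3G and CD5), and their mean log2 level per array was 1.68 to 1.90 in CPE against 0.68 to 0.93 in CONTROL. Of 4 neutrophil markers CSF3R and CXCR2 were lower and BPI and S100A12 higher, with mean levels of 1.72 to 2.00 in CPE and 2.20 to 3.12 in CONTROL. The 3.12 is CONTROL array 1, where BPI had no value and is missing from the mean. On the other CONTROL arrays BPI read −0.51 to −0.48, so the upper end of that range is not comparable with the other means. The ranges in parentheses that follow are likewise means over the tested markers of a cell type, CPE against CONTROL. Of 2 NK cell markers GNLY was higher and NKG7 lower (3.06 to 3.24 against 2.85 to 3.03). Of 2 monocyte markers CSF1R was lower (0.13 to 0.63 against 0.68 to 0.97), itself at 1.99 to 2.89 against 3.23 to 3.59. The platelet gene PPBP was higher (0.47 to 0.97 against −0.94 to −0.57). Of 3 general leukocyte markers ITGB2 was lower, at 4.50 to 4.99 in CPE and 5.17 to 5.19 in CONTROL. The means over these 3 overlapped (3.05 to 3.21 against 2.99 to 3.32). Of 4 B cell markers 0 were called (2.08 to 2.44 against 2.08 to 2.16). HBB, the tested red cell gene (6.69 to 7.38 against 6.65 to 6.95), was not called either. The part of cell composition in the differences of splicing factors was not tested.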

How the data were processed

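Signal intensity per spot was deposited by the authors as Agilent Feature Extraction 10.10.1.1 output, per the file headers, with processed intensity background-subtracted and spatially detrended. The authors' deposited table holds log2 values averaged per group. Its gene symbols chose the splicing factors, and both members and lists were chosen with earlier results of these data known.

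Of 45220 spots per array, 1417 control spots and 12 to 73 outlier spots were left out; no spot was saturated. A spot was bright on an array when the log2 raw intensity around it (90th percentile of the 61 nearest spots) lay within 1.5 of the array's 90th percentile of such values. Log2 processed intensity minus the 75th percentile of bright probes was averaged over duplicate spots. Genes took the probe of highest mean and were compared with limma 3.58.1 (R 4.3.3, two-sided), adjusted by Benjamini-Hochberg at 0.05; fits were tested on simulated data. Probe names came from transcript accessions in a RefSeq table (26903), its symbols (6656) or the file's symbol (1387), and 8707 had none; 5 splicing factors were renamed. Every tested member is named, with per-array values for up to 3 called rises and falls per class, and for others chosen after their values were seen. The number of arrays limits the precision. Alternatives covered scaling, background (normexp on raw median intensity, since no mean signal was used here), filters, bright-area limits, probe choice, variance, a replicate block, a minimum change and leaving out arrays. HNRNPC carries another symbol in the files and is not a member.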

Additional observations from a re-analysis of the deposited data

Results flagged for a closer look

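For each tested probe and group with 4 values, the array at either end was compared with the rest by Dixon's test. Of 124 sets of 4 log2 levels, 25 had an array set apart, where chance alone marks about 1 in 20. CONTROL array 4 was highest in 8 and lowest in 5 of them, CPE array 3 lowest in 9 and highest in 2, and CPE array 1 lowest in 1.

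CONTROL array 4 stood above the other CONTROL arrays at 1.84 for PNISR, 0.92 for SRSF10, 2.12 for SRSF4, 2.88 for the SRSF6 probe with TCTCG repeats, 1.25 for PRPF8, 3.63 for SF3B5, 1.94 for HNRNPDL and −0.37 for the second probe of HNRNPR. It stood below them at −3.42 for the second probe of PRPF19, −0.95 for the second probe of HNRNPA1, −0.95 for another probe of HNRNPDL, −1.98 for the second probe of HNRNPF and 1.18 for HNRNPH1.

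CPE array 3 stood below the other CPE arrays at 0.71 for SRSF2, −3.02 for a dim probe of PNISR, 1.13 for PRPF4, 1.92 for SF3A3, −4.48 for the printed probe of SF3B4, 0.81 for the second probe of HNRNPA1, 0.97 for the second probe of HNRNPAB, 1.43 for HNRNPDL and −3.73 for HNRNPU. It stood above them at 1.80 for PRPF18 and 0.60 for SNRPA1. CPE array 1 was lowest at 0.17 for the probe of HNRNPDL that was called lower.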

How the results depend on the processing

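Counts of splicing factor genes higher and lower, 7 and 8 at first, kept within 1.5-fold under most of the 25 alternatives. The exceptions in the higher count were 0 without scaling, with whole-array scaling and with the minimum change (log2 0.5), 4 with normexp, 4 without CONTROL array 1 or CONTROL array 2, and 12 with local centring or, chosen after seeing the data, without CPE array 3 and CONTROL array 4. In the lower count they were 1 without scaling or with the minimum change, 5 with normexp, and 18 with whole arrays (47 genes tested) or with every probe counted (63). For all genes, 190 were higher and 528 lower without scaling, 666 and 596 with normexp, 123 and 2248 over whole arrays, and 143 and 222 with the minimum change; local centring gave 1751 higher and no filter on dim probes 2125 lower of 8201. Leaving out 1 array gave 4 to 10 splicing factor genes higher and 7 to 9 lower, and 905 to 1347 and 956 to 1343 of all genes.

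The median of all genes was −0.15 without scaling and −1.03 over whole arrays, where all 7 rises turned negative and uncalled: HNRNPAB −0.81, HNRNPH2 −0.87, PRPF18 −0.59, SF3B2 −0.77, SF3B4 −0.79, SF3B5 −0.40 and SNRPG −0.48. Wider bright areas replaced the probe of 2 genes, giving 0.51 for HNRNPF and 0.36 for PRPF38A with a limit of 2, and 0.39 for PRPF38A with more neighbours. Local centring gave −0.90 for HNRNPH1, called lower. Averaging probes gave −0.0056 for HNRNPAB, 0.17 for HNRNPF and −0.21 for SF3B4, all uncalled, and made SRSF6 (−0.44), SRSF10 (−0.37), SRSF11 (−0.44) and HNRNPR (−0.21) called lower. Beyond these constructions the cause was not tested. PNISR kept its call in 24 of 24 settings, SRSF4 in 22, SNRPG in 21 and HNRNPAB in 11. With the replicate number as a block, 7 splicing factor genes were higher and 8 lower, with HNRNPAB and HNRNPH2 no longer called and SRSF3 and HNRNPUL2 called; arrays of one number share only that number, their deviations correlating at −0.10, −0.18, 0.30 and 0.41. The bright area left out 25 of 67 genes and the background filter 2 more.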
